A study of Mus musculus with 23 samples.

Results

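Quadriceps muscle of MCK-NamptOE mice, which overexpress Nampt in skeletal muscle, was compared with quadriceps of wild-type (WT) mice at 24 months of age. The comparison rests on 8 of the 23 libraries of the series, chosen by title: 4 MCK-NamptOE and 4 WT libraries, each from another animal. Poly(A) RNA was sequenced and reads were counted per gene. All mice were of the C57BL/6 background and ate standard chow. Some had glucose or exercise tolerance tests before they were killed, and the labels do not say which. Beside them stand 4 WT and 3 MCK-NamptOE libraries at 4 months, and 4 WT and 4 mNKO libraries (Nampt-deficient in skeletal muscle) at 7 months. MCK is the usual abbreviation of muscle creatine kinase, whose promoter is active in striated muscle fibres and not in the other cells of a muscle. The construct, the species of the transgene and the number of founder lines are not given in the sources used here, and neither is sex. Xist had 0 reads in all 8 libraries and the Y-linked transcripts were present in each.

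Nampt makes nicotinamide mononucleotide from nicotinamide, the rate-limiting step by which muscle recycles the coenzyme NAD. The Nmnat enzymes then turn that product into NAD. NAD carries electrons from the tricarboxylic acid cycle and fatty acid oxidation to complex I of the mitochondrial respiratory chain, and it is consumed by sirtuins and poly(ADP-ribose) polymerases. Muscle fibres range from slow oxidative fibres, rich in mitochondria and myoglobin, to fast glycolytic fibres. The quadriceps of a mouse is mostly fast.

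The 8 libraries held 2316325 to 3266645 counts on genes and 12597 to 13393 detected genes. Skeletal muscle markers (14 of 14 tested) summed to 132200 to 146600 CPM in WT and 132900 to 138700 CPM in MCK-NamptOE, where CPM is edgeR's depth-scaled count after TMM normalisation. T cell markers summed to at most 2.06 CPM in any library. MCK-NamptOE replicate 4 stood apart: it lay at 30.5 on the first principal component (37.4% of the variance of 6138 genes), and the other 7 libraries lay between -15.5 and 4.86. It also had the highest share of reads not assigned to a gene (40.02%, others 33.6 to 38.2%). Exon length was taken as all bases covered by the annotated exons of a gene, over all its transcripts, and can exceed that of its mRNA. Across 9105 genes, the log2 difference of replicate 4 from WT fell with exon length (Pearson's r = -0.416, across genes, which are not independent). In the other 7 libraries r lay between -0.0516 and 0.0364. The respiratory chain, slow fibre and antigen presentation medians below are therefore given with and without replicate 4. Other lists and single genes are given without it in some cases only. The mitochondrial share of counts was 27.1% ± 2.93 (SD, n = 4) in WT and 30.3% ± 1.87 (n = 4) in MCK-NamptOE, an exact two-sided permutation p of 0.0571 (0.229 adjusted over 4 library qualities; the smallest possible p is 0.0286).

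Nampt itself separated the genotypes in every library. The gene lies on chromosome 12 (32819545 to 32853349, plus strand, mm10). It stood at 189, 208, 219 and 205 CPM in the WT libraries and at 5736, 4107, 5422 and 9533 CPM in the MCK-NamptOE libraries. The lowest MCK-NamptOE library was thus far above the highest WT library, and replicate 4 was the highest of its group. Nampt rose 30.2-fold (log2 fold change 4.92, SE 0.21, edgeR adjusted p = 2.84e-13), and without replicate 4 the log2 fold change was 4.63. At 4 months it was 4.53, and a difference between the ages did not pass edgeR's test (interaction log2 0.38, SE 0.26, adjusted p = 0.91). Gdap10, whose span overlaps Nampt, had at most 20 reads in any of the 8 libraries.

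**Figure D1:**
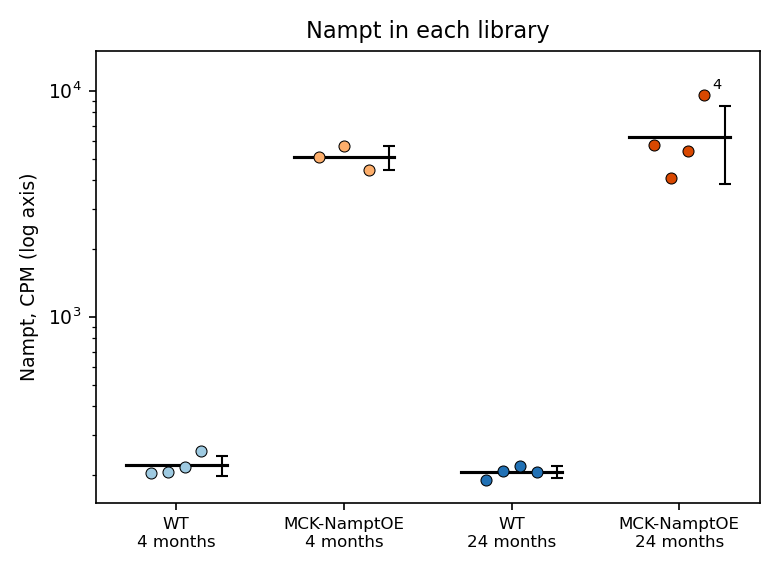
Nampt in CPM (log axis) in each library, by genotype and age. Points are libraries, horizontal lines group means and bars 1 SD; "4" marks MCK-NamptOE replicate 4 (9533 CPM), and the WT libraries at 24 months lie between 189 and 219 CPM.

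Beyond Nampt, edgeR's quasi-likelihood test called no gene. Of 9144 genes tested at 24 months, 1 was higher (0.0109%) and 0 were lower (0%) at an adjusted p below 0.05. At an unadjusted p below 0.05 there were 382 higher genes (4.18%) and 289 lower genes (3.16%). DESeq2 called 4 higher genes (Nampt, Camta1, Uqcrb and Egln3) and 0 lower, and limma-voom called Nampt alone. A count that needs no model is that of genes whose 4 MCK-NamptOE libraries all lay above, or all below, the 4 WT libraries: 216 genes were higher in this sense (2.36%) and 213 lower (2.33%). All group differences below are therefore described by values, by these counts and by medians, and none is a called change. For a typical gene the log2 difference carried a standard error of 0.206 (median), or 0.173 at 10 CPM or more.

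**Figure D2:**
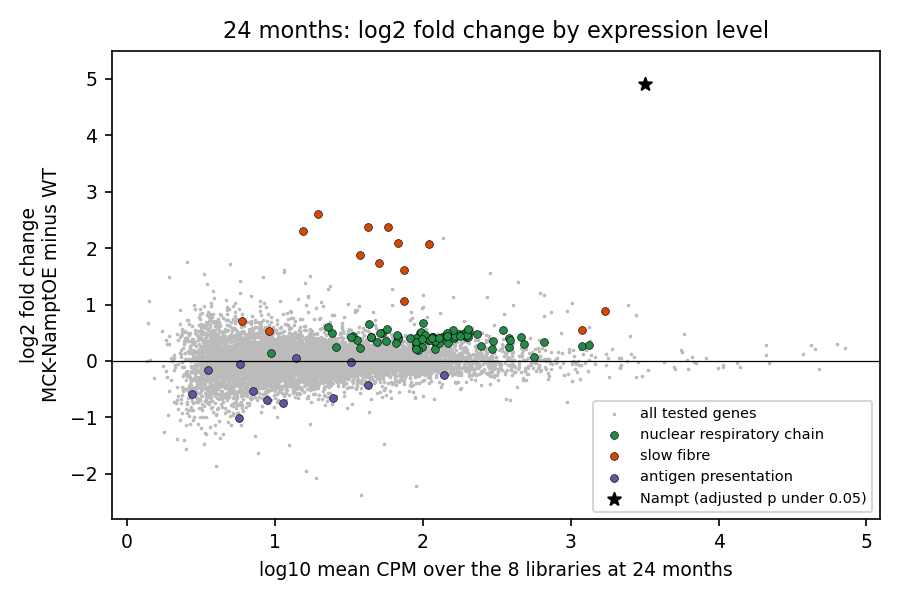
Log2 fold change at 24 months (MCK-NamptOE minus WT) against log10 mean CPM for the 9144 tested genes (grey), with 3 gene groups in colour. Nampt (star, 4.92) is the only gene past an adjusted p of 0.05; the 77 respiratory chain genes (green) and the 14 slow fibre genes (orange) all lie above 0.

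The other genes of NAD metabolism stayed close to their WT levels or varied between animals. Of 22 genes of NAD synthesis, 8 passed the filter on low counts, and Nampt was the 1 called. The median log2 fold change of the 8 was 0.04, against 0.00 over all tested genes. Nmrk2, a nicotinamide riboside kinase and the other muscle route to nicotinamide mononucleotide, stood at 5.57, 6.17, 26.4 and 2.17 CPM in WT and 30.2, 20.04, 2.64 and 40.9 CPM in MCK-NamptOE. The groups overlapped, with WT replicate 3 and MCK-NamptOE replicate 3 each far from the rest of its group (log2 fold change 1.15, SE 0.75, adjusted p = 0.777). Nmnat1, the nuclear enzyme that completes NAD synthesis, had a log2 fold change of -0.16 (SE 0.25, adjusted p = 0.932). Among the NAD-consuming enzymes (sirtuins, PARPs and ADP-ribosyltransferases), 20 of 26 were tested, 0 were called, and their median was -0.05. Parp9 was the 1 consumer without overlap: 5.17, 3.52, 2.40 and 2.90 CPM in WT and 1.21, 1.31, 2.27 and 1.32 CPM in MCK-NamptOE, levels of only a few reads (log2 fold change -1.13, SE 0.47, adjusted p = 0.642). It is named because it was the only one in that count.

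The nuclear genes of the respiratory chain lay above WT as a group. Complexes I to IV and cytochrome c move electrons to oxygen and complex V makes ATP, and their subunits are small proteins of abundant mRNAs. All 77 subunits passed the filter, all 77 log2 fold changes were above 0 (0.06 to 0.67), and their median was 0.42. Of the 77, 46 were higher and 0 lower at an unadjusted p below 0.05 (background 4.18% higher), 31 were higher without overlap (2.36%), and edgeR called 0 (lowest adjusted p 0.338). Promoters of 3 members without overlap are printed here because mitochondrial genes are commonly read for sites of the NRF1, ETS and ERR transcription factors. They are the members with the smallest p that hold such letters outside the annotated gene, in RefSeq sequence (GRCm38.p6), 5′ to 3′ on the gene's strand, with the match in capitals.
Atp5l, chr9:44920743-44920992, minus strand, ETS letters: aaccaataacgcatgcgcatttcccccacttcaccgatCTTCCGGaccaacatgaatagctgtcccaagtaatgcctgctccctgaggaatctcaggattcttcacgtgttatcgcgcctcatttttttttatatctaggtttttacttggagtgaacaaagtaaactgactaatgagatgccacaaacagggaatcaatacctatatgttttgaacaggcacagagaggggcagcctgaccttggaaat
Uqcrh, chr4:116075072-116075320, minus strand, ETS letters: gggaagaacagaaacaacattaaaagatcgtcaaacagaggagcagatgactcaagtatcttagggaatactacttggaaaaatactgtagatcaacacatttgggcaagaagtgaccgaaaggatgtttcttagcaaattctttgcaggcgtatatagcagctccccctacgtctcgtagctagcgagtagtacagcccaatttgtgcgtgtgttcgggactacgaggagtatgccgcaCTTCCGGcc
Atp5h, chr11:115419963-115420169, minus strand, NRF1 letters: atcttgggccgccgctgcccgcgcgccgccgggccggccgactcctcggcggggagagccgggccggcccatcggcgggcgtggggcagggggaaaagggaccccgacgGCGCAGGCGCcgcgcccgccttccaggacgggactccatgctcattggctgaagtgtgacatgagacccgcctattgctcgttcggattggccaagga

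The letters searched, on both strands of the 250 bases before the outermost start, were GCGCA and GCGC with 1 base of any kind between them (NRF1), CCGGAAG (ETS) and TCAAGGTCA (ERR). Windows were found for 63 of the 77 respiratory chain genes. NRF1 letters stood in 12 of the 63 (19%), against 9.6% of 6948 tested genes and 3.87% of all 27025 genes with a window. ETS letters stood in 11 (17.5%), against 15.3% of tested and 7.07% of all genes, and ERR letters in 1 (1.59%), against 0.158% and 0.366%. Of the 24 members without overlap that have a window, 3 held NRF1 letters and 5 ETS letters. A match describes the letters and says nothing of binding.

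Atp5l and Atp5h, subunits of ATP synthase, and Uqcrh, the hinge protein of complex III, show the pattern of the group. Atp5l stood at 175, 140, 172 and 165 CPM in WT and 219, 178, 220 and 350 CPM in MCK-NamptOE (log2 fold change 0.57, SE 0.17, adjusted p = 0.543). Uqcrh stood at 197, 188, 202 and 183 CPM in WT and 240, 224, 240 and 374 CPM in MCK-NamptOE (0.48, SE 0.15, adjusted p = 0.543). Atp5h stood at 185, 170, 168 and 150 CPM in WT and 198, 191, 205 and 330 CPM in MCK-NamptOE (0.46, SE 0.17, adjusted p = 0.599). In each, the first 3 MCK-NamptOE libraries lay just above the WT range and replicate 4 lay far above it. Ndufa5, a subunit of the matrix arm of complex I and the member with the largest log2 fold change, stood at 76.0, 76.0, 79.9 and 77.6 CPM in WT and 104, 106, 96.3 and 188 CPM in MCK-NamptOE (0.67, SE 0.20, adjusted p = 0.543). These 4 genes were chosen after their values were seen. Without replicate 4 the log2 fold changes of Atp5l, Uqcrh, Atp5h and Ndufa5 were 0.34, 0.29, 0.24 and 0.40.

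Uqcrb, another subunit of complex III, had the smallest p of the group. It stood at 280, 288, 302 and 257 CPM in WT and 370, 381, 378 and 524 CPM in MCK-NamptOE (log2 fold change 0.55, SE 0.13, edgeR adjusted p = 0.338). DESeq2 called it (adjusted p = 0.0319), and without replicate 4 edgeR's log2 fold change was 0.42. Ndufs1, of the iron-sulphur core, and Ndufa12 were among the abundant complex I genes. Ndufs1 stood at 204 to 239 CPM in WT and 251 to 288 CPM in MCK-NamptOE, without overlap. Ndufa12 overlapped (248 to 299 and 277 to 459 CPM). In complexes II to V the most abundant were Atp5b and Atp5a1, the catalytic beta and the alpha subunit of ATP synthase, and Cox6a2, the muscle form of a complex IV subunit. All 3 overlapped, with log2 fold changes of 0.29, 0.26 and 0.33 (SE 0.14, 0.15 and 0.17, adjusted p = 0.683, 0.728 and 0.693). Without replicate 4 these were 0.17, 0.19 and 0.09.

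By complex, the median log2 fold change was 0.40 over 36 subunits of complex I, 0.30 over 4 of complex II, 0.41 over 9 of complex III, 0.46 over 12 of complex IV and 0.44 over 15 of complex V, and 0.42 for Cycs, cytochrome c itself. Of the 31 members without overlap, 10 were in complex I, 0 in complex II, 4 in complex III, 8 in complex IV and 8 in complex V, beside Cycs.

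**Figure D3:**
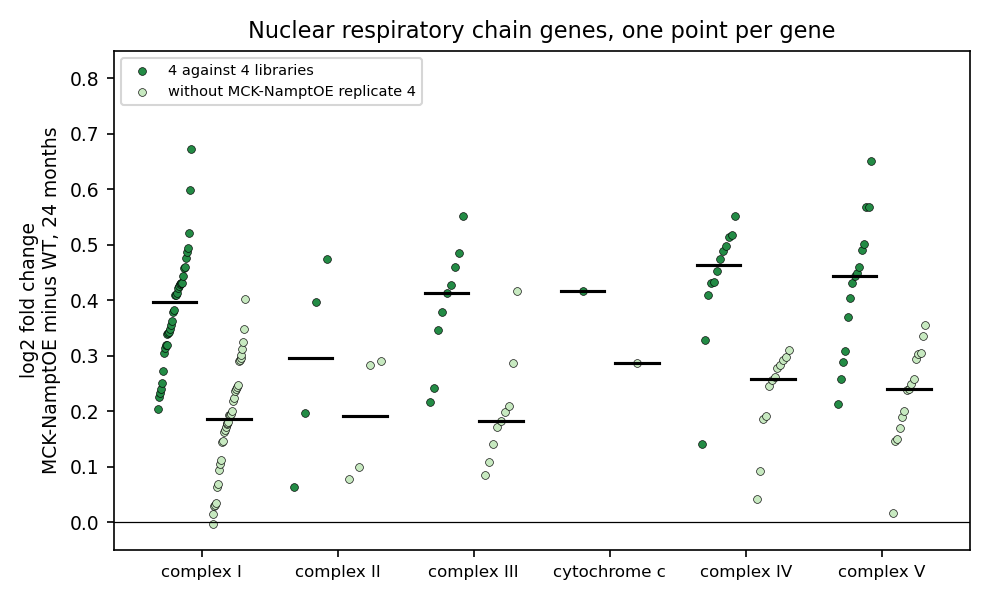
Log2 fold change at 24 months of each nuclear respiratory chain gene, by complex, with all 8 libraries (dark) and without MCK-NamptOE replicate 4 (light). Lines are medians; over all 77 genes the median is 0.42 with and 0.20 without that library, and 76 of 77 stay above 0 without it.

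MCK-NamptOE replicate 4 carried much of the size of this difference. Summed over the 77 genes, WT libraries held 13230, 11660, 12330 and 11810 CPM and MCK-NamptOE libraries 14650, 13690, 13970 and 20780 CPM. The groups did not overlap, and replicate 4 lay far above the other 3. The median difference of the members from the WT mean was 0.28, 0.19 and 0.20 log2 units in MCK-NamptOE replicates 1 to 3 and 0.89 in replicate 4. Without replicate 4 the median was 0.20, 76 of 77 genes stayed above 0, 7 were higher at an unadjusted p below 0.05 (background 2.22%), and 31 were higher without overlap (3.61%). Over all genes, 2.05% were then lower at an unadjusted p below 0.05 and 3.71% lower without overlap, and of the 77 genes 0 were. Counted by library, 64, 43, 50 and 76 of the 77 genes exceeded the highest WT library in MCK-NamptOE replicates 1 to 4, against 22.1, 21.0, 23.3 and 31.0% of all tested genes. In whole muscle, a change in the share of cells of a type and a change in RNA per cell cannot be told apart.

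Differences by exon length moved with the same library. The median exon length of the 77 genes was 1756 bases, against 4779 bases over all tested genes. Among the 528 tested genes with exons under 1500 bases, the median log2 fold change was 0.19 with replicate 4 and 0.05 without it. Of the 528, 36 were higher (6.82%) and 3 lower (0.568%) without overlap, against 2.36% and 2.33% of all tested genes. The 528 include respiratory chain genes that were higher without overlap, such as Uqcrb, Cox6b1 and Ndufa5 (876, 708 and 1032 bases). The values of the 528 are therefore not those of other short genes alone. Without replicate 4, 37 of 521 were higher and 12 lower without overlap, against 3.61% and 3.71% of all tested genes. The cytosolic ribosomal protein genes are also abundant and of short exon length (median 2015 bases). Their median log2 fold change over 53 genes was 0.22 with replicate 4 and 0.07 without it, and 3 of them were higher without overlap. The part of exon or transcript length in the respiratory chain result was not tested, and the values without replicate 4 stand beside it above.

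The same genes at 4 months, in other animals, had a median log2 fold change of 0.01, with 41 of 77 above 0 and 0 at an unadjusted p below 0.05 (backgrounds 2.13% higher and 2.69% lower). Over all genes at 4 months, 2.7% were higher and 2.59% lower without overlap. The interaction, which tests the difference between the ages and reuses the 24-month libraries, had a median of 0.39 over the 77, with 75 above 0 and 8 higher at an unadjusted p below 0.05 (background 3.02%). It was called for 0 of them by edgeR (lowest adjusted p 0.696). WT libraries at 4 months spread from 11370 to 15570 CPM in sum and those of MCK-NamptOE from 11740 to 15830, wider than WT at 24 months. In mNKO muscle at 7 months, extracted with another kit and fitted apart, the median was -0.32, with 23 lower and 1 higher at an adjusted p below 0.05 of 77, against 32.2% lower and 19.1% higher of all tested genes.

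The mitochondrion's own mRNAs and the feeding pathways had smaller medians. Of 13 mRNAs encoded by mitochondrial DNA, 7 passed the filter, all 7 were above 0 (median 0.23), and 0 were without overlap. Reads without a unique alignment (28.5 to 36.4% at 24 months) stayed out of the gene counts. Their part in which of the 13 passed, and in the mitochondrial share of counts, was not tested. mt-Co1, a core subunit of complex IV, stood at 79170, 66330, 62880 and 54500 CPM in WT and 80740, 80170, 65960 and 81660 CPM in MCK-NamptOE. WT replicate 1 lay just below the high MCK-NamptOE libraries, and MCK-NamptOE replicate 3 lay among WT. mt-Cytb and mt-Nd1 likewise overlapped (log2 fold changes 0.30 and 0.21, SE 0.13 and 0.14, adjusted p = 0.653 and 0.772). Tricarboxylic acid cycle enzymes had a median of 0.21 over 24, with 6 higher without overlap (2.36%), and fatty acid oxidation and uptake 0.27 over 29, with 1. Without replicate 4 these medians were 0.14 and 0.16.

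Idh2, the mitochondrial NADP-dependent isocitrate dehydrogenase, had the largest log2 fold change of its cycle and was chosen after its value was seen. It stood at 130, 74.0, 103 and 95.7 CPM in WT and 183, 132, 176 and 397 CPM in MCK-NamptOE, the lowest MCK-NamptOE library just above the highest WT library. The log2 fold change was 1.14 (SE 0.36, adjusted p = 0.593), and 0.71 without replicate 4. Ppargc1a, the coactivator PGC-1 alpha that drives mitochondrial gene expression, overlapped between the groups and was chosen after its value was seen. It stood at 20.3, 13.5, 31.8 and 17.0 CPM in WT and 20.5, 24.4, 78.6 and 43.6 CPM in MCK-NamptOE (log2 fold change 1.02, SE 0.42, adjusted p = 0.642). Its highest libraries were MCK-NamptOE replicates 3 and 4.

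Slow fibre genes had the largest median of the pathway lists. Of 15 genes, 14 passed the filter, all 14 were above 0 (0.52 to 2.61) with a median of 1.81, 10 were higher at an unadjusted p below 0.05 (background 4.18%), and 3 were higher without overlap (2.36%). EdgeR called 0 (lowest adjusted p 0.543). The 3 without overlap were Myl2, Tnnc1 and Myoz2. Tnnc1, the slow troponin C that binds calcium on the thin filament, stood at 9.15, 1.17, 11.4 and 0 CPM in WT and 26.2, 14.8, 29.1 and 63.8 CPM in MCK-NamptOE (log2 fold change 2.61, SE 0.77, adjusted p = 0.593). Myl2, the slow and cardiac regulatory myosin light chain, stood at 40.6, 1.17, 33.6 and 0.725 CPM and at 79.3, 42.7, 71.8 and 198 CPM (2.38, SE 0.98, adjusted p = 0.642). Myoz2, a Z-disc protein of slow fibres, stood at 50.9, 8.22, 26.4 and 9.06 CPM and at 63.6, 65.8, 65.3 and 115 CPM (1.74, SE 0.73, adjusted p = 0.653). The WT group thus split in all 3 genes, with replicates 2 and 4 lowest and replicates 1 and 3 between them and the MCK-NamptOE libraries. Without MCK-NamptOE replicate 4 the log2 fold changes of Tnnc1, Myl2 and Myoz2 were 2.11, 1.79 and 1.49.

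Myh7, the slow myosin heavy chain and the defining marker of the fibre type, showed the same split with overlap. It stood at 63.3, 1.76, 39.95 and 0.362 CPM in WT and 103, 44.4, 144 and 150 CPM in MCK-NamptOE (log2 fold change 2.10, SE 0.90, adjusted p = 0.657). The most abundant genes of the list overlapped too. Mb, the oxygen store myoglobin, stood at 1970, 1041, 1198 and 573 CPM in WT and 2354, 1833, 1436 and 3161 CPM in MCK-NamptOE (0.88, SE 0.52, adjusted p = 0.752). Mybpc1, slow myosin-binding protein C, stood at 1347, 732, 775 and 1017 CPM and at 1317, 1412, 1403 and 1531 CPM (0.55, SE 0.16, adjusted p = 0.543). Csrp3, a LIM-domain protein of the Z-disc, spread within both groups (4.35 to 103 and 68.4 to 334 CPM).

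Summed over the 14 genes, WT libraries held 3767, 1870, 2359 and 1657 CPM and MCK-NamptOE libraries 4517, 3695, 3645 and 6127 CPM. WT replicate 1 exceeded MCK-NamptOE replicates 2 and 3, so the sums overlapped. Without MCK-NamptOE replicate 4 the median was 1.47, with 6 of 14 higher at an unadjusted p below 0.05 (background 2.22%). Leaving out each of the 8 libraries in turn gave medians of 1.46 (without WT replicate 2) to 2.26 (without WT replicate 1). At 4 months the median was -0.47, with 2 of 14 above 0, and the interaction had a median of 2.61, with 5 higher at an unadjusted p below 0.05 and 0 called (lowest adjusted p 0.528). In mNKO muscle at 7 months 12 of 14 were higher at an adjusted p below 0.05, with a median of 3.31, against 19.1% higher of all tested genes. Fast fibre genes had a median of -0.03 over 18 (-0.26 to 1.41, 7 above 0), with 0 without overlap. Without MCK-NamptOE replicate 4 the median was -0.11, with 2 above 0. Myh2, another fast myosin heavy chain, had 1272, 308, 758 and 373 reads in WT. In MCK-NamptOE it had 1635, 1196, 1140 and 2108 reads, not scaled for depth. Myh4, the fastest myosin heavy chain and the most abundant of them, stood at 45280 to 53780 CPM in WT and 43330 to 47850 CPM in MCK-NamptOE (-0.14, SE 0.13, adjusted p = 0.854).

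**Figure D4:**
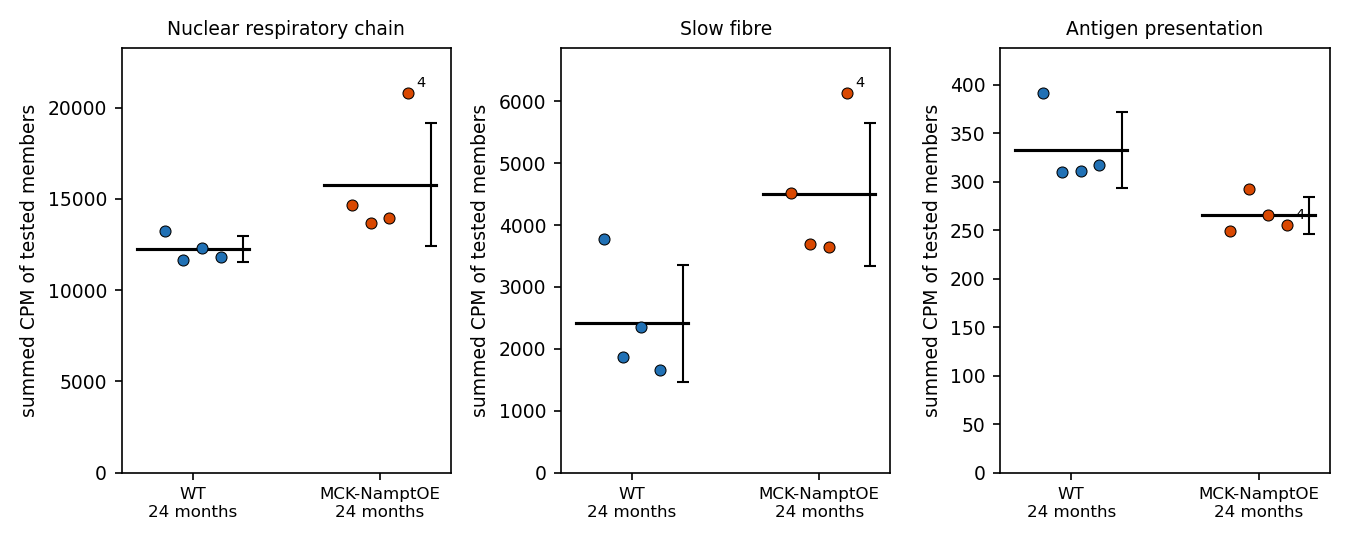
Summed CPM of the tested members of 3 gene lists in each library at 24 months (axes start at 0). Points are libraries, lines group means and bars 1 SD; the respiratory chain sums run from 11660 to 13230 CPM in WT and from 13690 to 20780 CPM in MCK-NamptOE, with replicate 4 marked.

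Antigen presentation had the lowest median of the pathway lists. Of 20 genes, 12 passed the filter, 1 was above 0, the median was -0.48, 4 were lower at an unadjusted p below 0.05 (background 3.16%), and 3 were lower without overlap (2.33%): H2-Aa, H2-Eb1 and Cd74, which belong to class II. H2-Aa and H2-Eb1 each encode a class II chain, and Cd74 is the invariant chain that guides class II molecules. Class II molecules hold peptides on antigen-presenting cells. H2-Ab1, another class II chain, overlapped, at 10.3 to 18.3 CPM in WT and 4.84 to 10.9 CPM in MCK-NamptOE (-0.74, SE 0.27, edgeR adjusted p = 0.599). Cd74 stood at 30.2, 28.2, 33.9 and 29.0 CPM in WT and 16.9, 18.3, 27.2 and 13.7 CPM in MCK-NamptOE (log2 fold change -0.66, SE 0.19, adjusted p = 0.541). H2-Aa stood at 10.3, 7.93, 14.1 and 11.6 CPM and at 7.25, 5.23, 7.18 and 7.48 CPM (-0.69, SE 0.22, adjusted p = 0.585). H2-Eb1 stood at 8.36, 6.46, 7.51 and 8.70 CPM and at 4.43, 3.92, 5.29 and 1.32 CPM (-1.01, SE 0.38, adjusted p = 0.608). Each MCK-NamptOE library lay below the lowest WT library for all 3. The gap was small for Cd74 in replicate 3 (27.2 against 28.2 CPM) and for H2-Aa in replicate 4 (7.48 against 7.93 CPM). At this depth the values of H2-Aa and H2-Eb1 rest on few reads. The median of the list was -0.52 without replicate 4 and -0.29 without replicate 3.

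Class I genes, which most cells express, overlapped. B2m, the light chain of class I, stood at 193, 147, 129 and 140 CPM in WT and 108, 147, 128 and 127 CPM in MCK-NamptOE, and H2-D1 at 41.4 to 64.1 and 32.6 to 42.7 CPM (log2 fold changes -0.25 and -0.42, SE 0.16 and 0.21, adjusted p = 0.752 and 0.684). Markers of the cells that carry class II were set beside the list. The 20 macrophage and monocyte markers (11 tested, median log2 fold change 0.00, none at 0 reads) summed to 61.7 to 105 CPM in WT and 51.1 to 118 CPM in MCK-NamptOE. The 15 B and plasma cell markers found in the files (4 tested, median -0.43, none at 0 reads) summed to 182 to 265 and 131 to 236 CPM. Their most abundant members were Ighm, an immunoglobulin heavy chain, and Xbp1, a transcription factor that other cell types also express. Both ranges overlapped, and their part in the class II values was not tested. At 4 months the median of the antigen presentation list was 0.06 and the interaction median -0.53 (0 called). In mNKO muscle all 12 members were higher at an adjusted p below 0.05 (median 1.5), against 19.1% of all tested genes.

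Single genes were ranked by p among those without overlap and with at least 5 CPM, to 12 a direction with Nampt. After Nampt the higher genes were Camta1, Tubb6, Vgll2, Rab11fip5, Uqcrb, Itga5, Adprhl1, Olfm1, Ablim1, Pet100 and Slc25a34, with edgeR adjusted p-values of 0.127 to 0.423. Camta1, a calmodulin-binding transcription activator, stood at 26.7, 25.2, 27.03 and 18.1 CPM in WT and 37.8, 39.6, 42.3 and 62.5 CPM in MCK-NamptOE (log2 fold change 0.90, SE 0.17, edgeR adjusted p = 0.127, DESeq2 adjusted p = 0.0279). Each MCK-NamptOE library was well above WT, and without replicate 4 the log2 fold change was 0.72. Vgll2, a cofactor of TEAD transcription factors in muscle, stood at 38.2, 29.1, 31.8 and 32.6 CPM in WT and 56.8, 45.3, 60.1 and 76.6 CPM in MCK-NamptOE (0.86, SE 0.19, adjusted p = 0.29). Rab11fip5, an adaptor of recycling endosomes, stood at 15.9, 17.0, 14.4 and 11.96 CPM and at 24.6, 23.1, 27.9 and 25.5 CPM (0.77, SE 0.17, adjusted p = 0.338). Its groups were tight, and replicate 4 did not stand out.

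Tubb6, a beta tubulin, stood at 13.9, 11.4, 19.8 and 7.97 CPM in WT and 32.6, 22.2, 22.3 and 34.3 CPM in MCK-NamptOE (log2 fold change 1.05, SE 0.22, adjusted p = 0.288). Without WT replicate 3, its highest WT library, edgeR called it (1.32, adjusted p = 0.034). Itga5, the alpha chain of the fibronectin receptor, stood at 2.54 to 6.31 CPM in WT and 8.28 to 11.4 CPM in MCK-NamptOE (1.15, SE 0.27, adjusted p = 0.389), and Ablim1, an actin-binding LIM protein, at 23.8 to 41.0 and 46.2 to 58.9 CPM (0.69, SE 0.18, adjusted p = 0.423). Adprhl1, related to ADP-ribosylhydrolases, stood at 7.97 to 12.02 CPM in WT and 17.8 to 32.1 CPM in MCK-NamptOE (1.14, SE 0.27, adjusted p = 0.423). Olfm1, a secreted olfactomedin glycoprotein, stood at 2.17 to 6.01 and 7.41 to 19.8 CPM (1.48, SE 0.37, adjusted p = 0.423). Pet100, an assembly factor of complex IV, and Slc25a34, a mitochondrial carrier, had log2 fold changes of 0.71 and 0.87 (SE 0.19 and 0.22, adjusted p = 0.423 for both). Egln3, a prolyl hydroxylase of the hypoxia pathway, was called by DESeq2 only (adjusted p = 0.0315). It stood at 54.1, 35.2, 45.7 and 66.0 CPM in WT and 96.6, 129, 476 and 199 CPM in MCK-NamptOE (2.17, SE 0.51, edgeR adjusted p = 0.517), and its highest library was replicate 3.

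The lower genes were Jun, Vldlr, Klhl8, Fbxl4, Dock9, Slc12a2, Mvb12b, Cd74, Mllt4, Cpeb1, Gja1 and Fam69a, with adjusted p-values of 0.423 to 0.543. Jun, an early-response subunit of AP-1, stood at 136, 137, 165 and 142 CPM in WT and 115, 109, 65.3 and 76.2 CPM in MCK-NamptOE (log2 fold change -0.67, SE 0.17, adjusted p = 0.423). Vldlr, the very low density lipoprotein receptor, stood at 519, 541, 488 and 368 CPM and at 361, 291, 348 and 179 CPM (-0.70, SE 0.18, adjusted p = 0.423). Klhl8, a kelch-like protein, stood at 25.5, 35.2, 26.7 and 35.2 CPM and at 18.9, 18.7, 17.8 and 17.2 CPM (-0.76, SE 0.20, adjusted p = 0.446). The 4 MCK-NamptOE values of Klhl8 were nearly equal, whereas Jun was lowest in replicates 3 and 4 and Vldlr in replicate 4. Without replicate 4 the log2 fold changes of Jun and Vldlr were -0.59 and -0.52. Fbxl4, an F-box protein of mitochondria, stood at 24.9 to 35.2 CPM in WT and 17.4 to 22.5 CPM in MCK-NamptOE (-0.62, SE 0.17, adjusted p = 0.499). Slc12a2, a sodium, potassium and chloride cotransporter, stood at 194 to 226 and 112 to 188 CPM (-0.49, SE 0.14, adjusted p = 0.541).

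The remaining lower genes had log2 fold changes of -0.44 (Cpeb1, which binds the polyadenylation element of mRNAs) to -0.78 (Gja1, connexin 43). Between them lay Mvb12b, a subunit of ESCRT-I, at -0.50, Dock9, an exchange factor for Cdc42, at -0.50, Mllt4, the junction protein afadin, at -0.54, and Fam69a at -0.73. Pfkfb3, which makes the activator of phosphofructokinase, overlapped and is named because edgeR called it without MCK-NamptOE replicate 1 (-1.04, adjusted p = 0.0455). It stood at 1060, 1200, 1159 and 1306 CPM in WT and 1136, 814, 423 and 486 CPM in MCK-NamptOE, so replicate 1 lay within WT and replicates 3 and 4 far below (-0.72, SE 0.23, adjusted p = 0.593 with all libraries). Scd1, a desaturase of fat cells and liver, is named as an abundant member of the adipocyte marker list (-2.22, SE 0.95, adjusted p = 0.654). It stood at 431, 39.3, 51.4 and 73.9 CPM in WT and 29.0, 37.9, 27.2 and 32.6 CPM in MCK-NamptOE, and WT replicate 1 supplied most of that difference. Adipocyte markers (10 of 15 tested, Ucp1 at 0 reads) summed to 434 to 2079 CPM in WT and 568.5 to 986 CPM in MCK-NamptOE, with a median log2 fold change of -0.82, or 0.24 without WT replicate 1, and their part in the Scd1 values was not tested.

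The ranked genes were then read at the other ages. Of the 11 higher genes 3 had the same sign at 4 months, and of the 12 lower genes 9 did, against 51.8% of all tested genes. The interaction was called for 0 of 9144 genes by edgeR (0%), with 276 higher (3.02%) and 222 lower (2.43%) at an unadjusted p below 0.05. DESeq2 called it for 1 gene, Acss1, a mitochondrial acetyl-CoA synthetase. Acss1 stood at 114, 88.1, 98.5 and 72.8 CPM in WT and 134, 122, 202 and 212 CPM in MCK-NamptOE at 24 months (log2 fold change 0.84), and its log2 fold change at 4 months was -1.15 (DESeq2 interaction adjusted p = 0.00348, edgeR 0.462).

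At 7 months, in mice that lack Nampt in muscle, several of these genes were called in the same direction as under overexpression at 24 months. Of the 11 higher genes 6 were higher, 0 lower and 5 not called in mNKO, against 19.1% higher and 32.2% lower of all tested genes. They were Tubb6 (log2 fold change 3.49), Itga5 (2.50), Olfm1 (1.81), Adprhl1 (1.24), Rab11fip5 (0.96) and Vgll2 (0.93). Of the 12 lower genes 8 were lower in mNKO and 2, Cd74 (3.21) and Gja1 (0.94), were higher. Fbxl4 (-2.001), Cpeb1 (-1.76) and Vldlr (-1.49) were the most negative. These libraries share no animal with those at 24 months, and their RNA was purified with another kit.

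EdgeR called 0 members of the following pathway lists. Protein folding and heat shock genes had a median log2 fold change of 0.27 over 28 (6 higher and 1 lower at an unadjusted p below 0.05). Without replicate 4 their median was 0.18 (2 higher, 1 lower). Antioxidant genes had a median of 0.13 over 31 (6 higher, 0 lower), or 0.09 (0 higher, 0 lower) without replicate 4. Proteasome subunits had a median of 0.14 over 31, or 0.02 without replicate 4. Glycolysis and glycogen genes, the main fuel path of fast fibres, had a median of 0.01 over 33 (1 higher, 3 lower). Without replicate 4 it was -0.06 (0 higher, 3 lower). Counted without overlap, 0 of the 33 were higher and 3 lower, against 2.36% and 2.33% of all tested genes. With replicate 4 left out, these counts were 0 and 6, against 3.61% and 3.71%. Extracellular matrix genes had a median of -0.19 over 31 (1 higher, 5 lower), or -0.02 (0 higher, 2 lower) without replicate 4. The 12 fibroblast markers (11 tested, none at 0 reads), which share Col1a1, Col3a1, Dcn and Lum with that list, had a median of -0.29 and summed to 673 to 867 CPM in WT and 354 to 939 CPM in MCK-NamptOE. The summed levels of both lists were lowest in MCK-NamptOE replicates 1 and 4, and the part of the markers in the matrix values was not tested. The counts at an unadjusted p below 0.05 stand against backgrounds of 4.18% higher and 3.16% lower, or 2.22% and 2.05% without replicate 4.

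**Figure D5:**
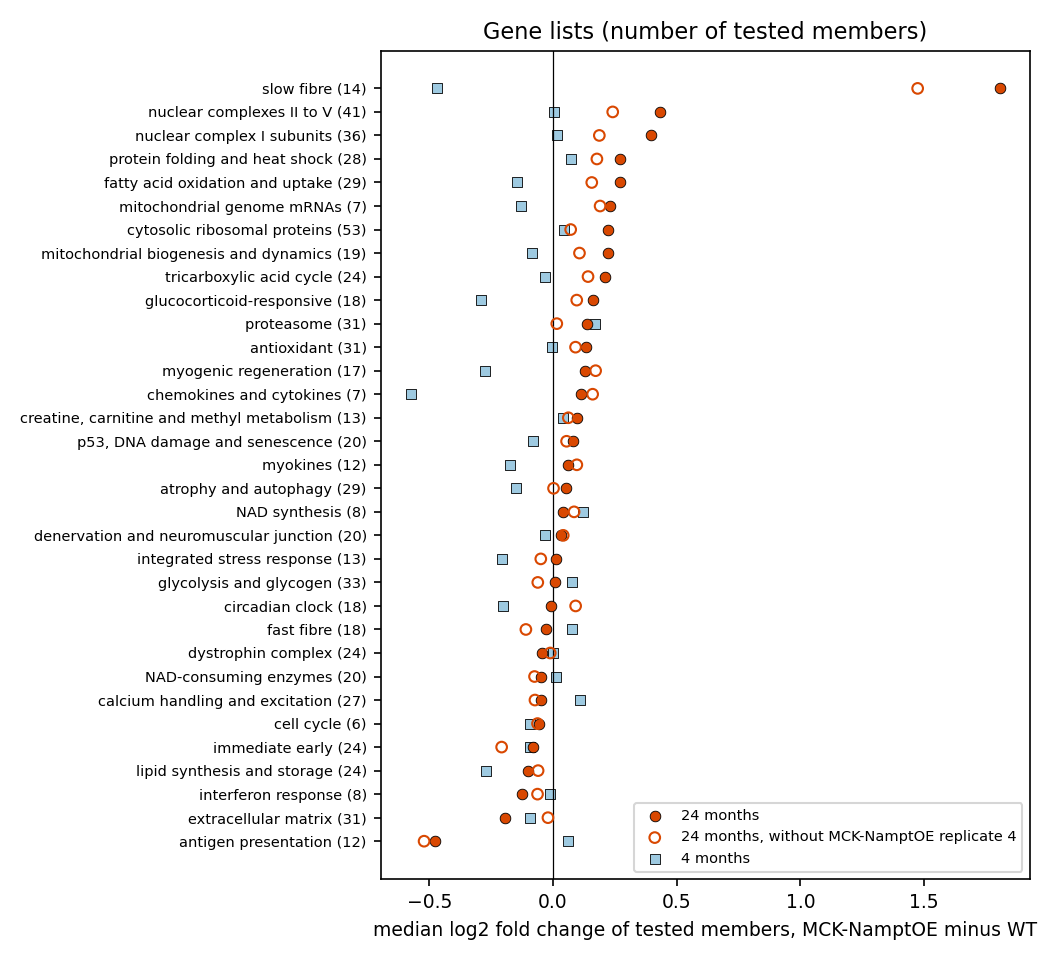
Median log2 fold change (MCK-NamptOE minus WT) of the tested members of each pathway list, at 24 months with all libraries (filled circles), without MCK-NamptOE replicate 4 (open circles) and at 4 months (squares); numbers of tested members are in brackets. Slow fibre (1.81) and antigen presentation (-0.48) are the extremes at 24 months, and both lie nearer 0 at 4 months (-0.47 and 0.06).

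The authors' deposited table for this comparison lists 7919 genes, of which 15 were higher (0.189%) and 4 lower (0.0505%) at its adjusted p below 0.05. Nampt was the 1 of these 19 that edgeR also called here. Its log2 fold change in the authors' deposited table was 4.94, against 4.92 here. Mean normalised counts in the authors' deposited table were a median 4.57-fold those of the deposited counts (5th to 95th percentile 4.23 to 4.94). The sources used here do not say what made them larger. The other higher genes in the authors' deposited table were Olfm1, Egln3, Vgll2, Itga5, Pdlim1, Pqlc1, Slc1a1, mt-Rnr1, Idh2, Mrps36, Camta1, Ablim1, Ivd and 1 predicted gene, with log2 fold changes of 0.35 (Ivd) to 1.88 (Egln3). The lower genes in the authors' deposited table were Gja1 (-0.65), Mib1 (-0.58), Srebf1 (-0.56) and Nup210 (-0.48). Here, Gja1, Mib1 and Srebf1 were lower without overlap and Nup210 overlapped, and none passed edgeR's test (adjusted p = 0.543, 0.569, 0.706 and 0.657). Of the 77 respiratory chain genes, 49 were higher in the authors' deposited table at an unadjusted p below 0.05 (background 5.3%), 0 were lower (background 2.82%) and 0 were called. Of 13 slow fibre genes listed in the authors' deposited table, 10 were higher at an unadjusted p below 0.05.

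mt-Rnr1, the small ribosomal RNA of the mitochondrion, is 1 of the genes called in the authors' deposited table (adjusted p = 0.024) and not by edgeR. It stood at 1673, 1592, 1870 and 1375 CPM in WT and 2451, 1972, 3519 and 4941 CPM in MCK-NamptOE (log2 fold change 0.98, SE 0.26, edgeR adjusted p = 0.541). All MCK-NamptOE libraries lay above WT, with replicates 3 and 4 the highest. Without replicate 4 the log2 fold change was 0.70. Srebf1, a driver of lipid synthesis, stood at 10.8 to 13.5 CPM in WT and 6.16 to 10.2 CPM in MCK-NamptOE, and Mib1, a ubiquitin ligase of Notch signalling, at 54.1 to 84.0 and 35.6 to 52.7 CPM. Slc1a1, a glutamate transporter, overlapped (3.23 to 7.16 and 6.44 to 12.8 CPM), as did Pdlim1, an actin-associated LIM protein (5.29 to 12.3 and 7.18 to 27.8 CPM).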

How the data were processed

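Poly(A) RNA of 8 quadriceps libraries (4 WT, 4 MCK-NamptOE, 24 months) was analysed, with the 4-month libraries in the fit. The authors deposited raw counts per gene. The submitters' processing notes name build mm10 and the tools HTSeq, TopHat2, cutadapt 1.4.2, DESeq and DESeq2; their order and settings are not given in the sources used here. The deposited test table holds, per the file headers, mean normalised counts (a signal), log2 fold changes with standard errors, a test score, and raw and adjusted p-values. Strand is not stated, so overlapping genes cannot be told apart.

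Summary lines for unassigned reads (33.6 to 40.02% at 24 months) stayed out. Genes were filtered with filterByExpr, which left 9144 genes and 99.53% of the counts, scaled by TMM (factors 0.921 to 1.08) and tested with edgeR 4.0.16 in R 4.3.3. The robust quasi-likelihood F test used a mean per group over 15 libraries (11 residual degrees of freedom, biological coefficient of variation 16%), with Benjamini-Hochberg adjustment over all genes and calls below 0.05. The p-values rest on the spread among these 8 and the 4-month mice. Libraries at 7 months (13140 genes) were fitted apart. Replicates are numbered in accession order as names only. No 2 libraries held the same counts, and pairs within a group differed by more than sampling noise (chi-square per degree of freedom 2.54 to 11.1).

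Alternatives were DESeq2 1.42.0, limma-voom (limma 3.58.1), 3 other scalings, 2 other filters, the 8 libraries alone and each library left out. Counts without MCK-NamptOE replicate 4, the count of short genes and the 7-month readings were added after seeing the data. Named genes are Nampt, then, as fewer than 12 a direction were called, the smallest p without overlap at 5 CPM or more (12 a direction; predicted and sex-linked genes left out), and up to 3 members a list, the most abundant where none was called; some are not reported here. The members and lists were chosen with earlier results of these data known. The test was also run on simulated data with the same spread for every gene and no library set apart. That setting does not cover a library like MCK-NamptOE replicate 4. Log2 CPM used a pseudocount of 1. RefSeq promoter windows (GRCm38.p6) were matched by symbol.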

Additional observations from a re-analysis of the deposited data

Results flagged for a closer look

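Values were set apart where Dixon's ratio passed its 95% critical value within a group of 4. Of 150 groups of values examined, 19 held such a value, and 8 of the 19 were in MCK-NamptOE replicate 4. Chance gives about 1 in 20 for independent groups that were not picked. The groups here included genes chosen after their values were seen and sums that share genes. Their count therefore cannot be set against that rate. Among respiratory chain genes, that library was high for Uqcrb (524.3 CPM, others 370 to 381), Uqcrh (374.2 CPM, others 224 to 240), Ndufa5 (187.5 CPM, others 96.3 to 106) and Atp5h (330.1 CPM, others 191 to 205). It was also high for the slow fibre gene Myoz2 (115.3 CPM, others 63.6 to 65.8). Its summed CPM was 5748 for complex I (others 3644 to 3883), 15030 for complexes II to V (others 10050 to 10770) and 20780 for all 77 genes (others 13690 to 14650).

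MCK-NamptOE replicate 3 was low for the mitochondrial share of counts (27.53%, others 31.0 to 31.6%), the share on the 10 most abundant genes (37.14%, others 40.4 to 40.7%) and mt-Co1 (65960 CPM, others 80170 to 81660). It was high for Parp9 (2.266 CPM, others 1.21 to 1.32). MCK-NamptOE replicate 2 was low for H2-Aa (5.228 CPM, others 7.18 to 7.48).

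WT replicate 1 was high for Scd1 (430.9 CPM, others 39.3 to 73.9), Srebf1 (13.53 CPM, others 10.8 to 10.9), Ndufa12 (298.8 CPM, others 248 to 254) and the antigen presentation sum (391.1 CPM, others 309.5 to 317.5). WT replicate 3 was high for Nmrk2 (26.43 CPM, others 2.17 to 6.17) and low for Mvb12b (23.13 CPM, others 25.8 to 26.1).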

How the results depend on the processing

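The count of genes called higher was 1 under each other scaling, the stricter filter, limma-voom and the 8 libraries alone, and 0 were lower. DESeq2 gave 4 higher genes, and 1 gene for the interaction. With no filter on low counts (17207 genes), edgeR called 94 higher and 36 lower genes and 106 for the interaction; the median prior degrees of freedom were 12.7 with the filter and infinite without it. Leaving out each library gave 1 to 2 higher genes (2 without WT replicate 3), 0 to 1 lower genes (1 without MCK-NamptOE replicate 1) and 0 for the interaction. The log2 fold change of Nampt kept its call under all alternatives, from 4.63 without MCK-NamptOE replicate 4 to 5.07 without replicate 2.

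The median of all genes was -0.088 with no scaling, where 180 genes were higher and 559 lower at an unadjusted p below 0.05, against 382 and 289. With no scaling the respiratory chain, slow fibre and antigen presentation medians were 0.32, 1.71 and -0.57. Upper-quartile scaling gave 306 higher and 355 lower genes. The antigen presentation median ranged from -0.52 to -0.29 when each library was left out, and was -0.29 without MCK-NamptOE replicate 3; the cause was not tested. Without MCK-NamptOE replicate 4, 389 genes passed an unadjusted p of 0.05, and without replicate 2, 826. The median standard error of 0.206 limits what single genes of this depth can show. No paired analysis was possible because the labels give animal numbers that the groups do not share.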
